A study of Mus musculus with 2 samples.

Results

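Polycomb repressive complex 2 (PRC2) was described in CH12.LX, an established mouse B cell lymphoma line derived from strain B10.H-2aH-4bp/Wts and labelled female. The 10 genes were taken by symbol as the catalytic subunits Ezh1 and Ezh2, the scaffold subunits Eed and Suz12, the histone-binding subunits Rbbp4 and Rbbp7, and the accessory subunits Jarid2, Aebp2, Mtf2 and Phf19. They are 10 of 43346 genes with an Ensembl identifier in the tables, and all 10 were matched. The labels name no treatment, and the cells gave 2 total RNA libraries, called biological replicates 1 and 2, so levels are described and the only difference that can be given is library against library. Nothing in the labels says whether the replicates were separate cultures grown apart, so the spread between them may be partly technical.

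PRC2 places methyl groups on lysine 27 of histone H3, a mark of silent developmental genes. EZH2 or its less active relative EZH1 carries the catalytic SET domain, and needs EED, which reads the finished mark, and SUZ12, which holds the complex together, to work. Accessory subunits steer the core to chromatin in alternative forms: PHF1, MTF2 or PHF19 define PRC2.1, while JARID2 and AEBP2 define PRC2.2. In B cells EZH2 is high in dividing germinal centre cells, and activating EZH2 mutations occur in human lymphomas that arise from them.

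The coding exons below are shown because transcripts with and without them were each assigned a share of Ezh2 or Suz12 in these libraries. These shares are estimates, and that of Ezh2-203 is not well fixed, as given below. Capitals mark the exon, and the 12 lower-case bases on each side are its neighbours in the spliced transcript, read 5′ to 3′ on the gene's strand from GENCODE M21 on mm10. Exon 14 of the 20 exons of Ezh2-201 (126 bases, chr6:47541845-47541970, minus strand) is absent from Ezh2-202. Exon 4 of Ezh2-201 (117 bases, chr6:47558178-47558294, minus strand) is absent from Ezh2-203. Exon 4 of the 16 exons of Suz12-201 (69 bases, chr11:79999057-79999125, plus strand) is absent from Suz12-206. All of these lengths are multiples of 3, so skipping keeps the reading frame.
Ezh2 exon 14: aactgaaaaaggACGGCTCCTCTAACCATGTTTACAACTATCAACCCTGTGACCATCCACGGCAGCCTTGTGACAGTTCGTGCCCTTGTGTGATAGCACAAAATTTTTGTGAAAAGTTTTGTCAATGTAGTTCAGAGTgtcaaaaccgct
Ezh2 exon 4: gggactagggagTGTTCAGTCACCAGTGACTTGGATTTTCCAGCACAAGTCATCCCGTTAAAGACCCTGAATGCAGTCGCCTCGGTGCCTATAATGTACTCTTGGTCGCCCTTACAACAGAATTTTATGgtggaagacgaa
Suz12 exon 4: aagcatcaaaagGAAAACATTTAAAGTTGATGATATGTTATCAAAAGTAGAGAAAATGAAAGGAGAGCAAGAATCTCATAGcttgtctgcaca

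The tables summed to 49278383 estimated reads for replicate 1 against 55950529 for replicate 2. Levels are in TPM, a scale that divides counts by transcript length and so allows genes to be compared. Protein-coding genes held 24.4% of TPM in replicate 1 and 24.3% in replicate 2, so levels read lower here than they would if TPM were rescaled to those genes. The B cell label was met by its markers, with 8 of 8 at 1 TPM or more in both libraries and summed levels of 238 and 237 TPM, though Ebf1, at 6.18 and 9.44 TPM, was past 1.5-fold between the libraries. Of other lineages, 2 of 6 T cell markers (Cd3d and Cd3g) reached 1 TPM in both libraries and 0 of 15 myeloid, erythroid and stromal markers did. Summed over each list, T cell markers came to 3.98 and 4.59 TPM in replicates 1 and 2, erythroid markers to 0.760 and 1.38, myeloid markers to 0.350 and 0.340, and stromal markers to 0.120 and 0.170 TPM. The Y-linked gene Uty, given below, was read above 1 TPM in both libraries although the line is labelled female. The T cell receptor component Cd3e and the monocyte marker Cd14 had 0 counts in both libraries.

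PRC2 genes were expressed at levels that spanned 2 orders of magnitude, with Rbbp7 far above the rest and Jarid2 at the bottom. At a threshold of 1 TPM in both libraries, 9 of 10 were detected, and Jarid2, at 0.77 (replicate 1) and 1.08 TPM (replicate 2), was not. That call was marginal: by the deposited posterior mean Jarid2 had 1.18 and 1.44 TPM, above the threshold in both libraries. By the same threshold 22.1% of all genes and 41.4% of protein-coding genes were detected. The median of the 10 was 11.8 TPM, against 0.195 TPM over 21474 protein-coding genes, detected or not. Of the members, 5 of 10 reached 10 TPM in both libraries, a threshold at which the share of all genes was not computed. Among protein-coding genes averaging at least 1 TPM, which leave out Jarid2, members ranked from percentile 27.1 (Ezh1) to percentile 96.2 (Rbbp7).

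The catalytic pair was led by Ezh2. Ezh2 (ENSMUSG00000029687, chromosome 6, 47530139 to 47595341) was at 15.3 TPM for replicate 1, 11.3 for replicate 2, a mean of 13.3 ± 2.84 TPM (SD, n = 2). Ezh1 (ENSMUSG00000006920, chromosome 11, 101191115 to 101226463) was at 2.67 TPM in the first replicate and 3.65 in the second, a mean of 3.16 ± 0.693 TPM. The libraries of the 2 genes did not overlap. The ratio of Ezh2 to Ezh1 was 5.72 in replicate 1 and 3.09 in replicate 2, a mean of 4.41 ± 1.86, so Ezh2 was the higher in each library but by an uncertain factor. The deposited credibility bounds of TPM, which cover the uncertainty of assigning reads within a library, were 14.8 to 16.1 and 10.9 to 12.0 for Ezh2 in replicates 1 and 2, and 2.60 to 3.09 and 3.47 to 4.08 for Ezh1.

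Of the scaffold subunits, Suz12 lay close to Ezh2, and Eed lay above both in each library. Eed (ENSMUSG00000030619, chromosome 7, 89954654 to 89980983) was at 20.5 (replicate 1) and 17.4 TPM (replicate 2). Suz12 (ENSMUSG00000017548, chromosome 11, 79993106 to 80034123) was at 14.9 TPM for replicate 1, 13.6 for replicate 2, a mean of 14.2 ± 0.969 TPM. Suz12 and Ezh2 overlapped over the libraries and changed places between them, so their order is not resolved. The 2 catalytic genes together came to 16.4 ± 2.14 TPM, between the means of Suz12 and of Eed, which was 18.9 ± 2.16 TPM.

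The histone-binding pair was very unequal. Rbbp7 (ENSMUSG00000031353, chromosome X, 162760402 to 162779092) was at 103 TPM in the first replicate and 82.0 in the second, the 98.4th percentile of protein-coding genes, and alone held 47.6% of the summed TPM of the 10 genes. Rbbp4 (ENSMUSG00000057236, chromosome 4, 129307100 to 129335370) was at 10.6 (replicate 1) and 9.90 TPM (replicate 2). Rbbp7 was thus 9.69 times Rbbp4 in replicate 1 and 8.28 times in replicate 2. These proteins also serve other chromatin complexes, so their mRNA level is not a measure of PRC2. Rbbp7 was the one member whose expected counts were not whole (tolerance 0.005), as happens where reads are divided among loci. It also shares 174 of 2909 exon bases with Txlng on the opposite strand, at 3.30 and 3.03 TPM in replicates 1 and 2.

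Among accessory subunits Aebp2, a zinc finger protein that stabilises the complex, was the highest by gene-level TPM. Aebp2 (ENSMUSG00000030232, chromosome 6, 140622663 to 140678472) was at 28.8 TPM for replicate 1, 25.7 for replicate 2, but 51.9% ± 6.39 of this came from transcripts that a later annotation no longer holds, as described below. Mtf2 (ENSMUSG00000029267, chromosome 5, 108065674 to 108109004), a Polycomb-like protein that binds unmethylated CpG DNA, was at 10.6 TPM in the first replicate and 9.25 in the second. Phf19 (ENSMUSG00000026873, chromosome 2, 34893757 to 34914026), its relative, was at 3.69 (replicate 1) and 3.58 TPM (replicate 2). Jarid2 (ENSMUSG00000038518, chromosome 13, 44729474 to 44921643), which binds the core and helps to place it on chromatin, was the lowest, at a mean of 0.925 ± 0.219 TPM. Its TPM lay under its own deposited bounds (0.920 to 1.46 and 1.20 to 1.70 for replicates 1 and 2), and its mean of the deposited posterior mean TPM was 1.31, so its level is poorly fixed. Mtf2 shares 395 of 5698 exon bases with Tmed5 on the opposite strand, at 17.6 and 17.9 TPM in replicates 1 and 2. Whether counting used strand is not given in the sources used here, so reads in that stretch cannot be told apart.

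In the order of mean levels, Rbbp7, Aebp2, Eed and Suz12 were separated from one another by more than the spread of the libraries. Suz12 and Ezh2 overlapped, Rbbp4 and Mtf2 overlapped, and Phf19 and Ezh1 overlapped. Jarid2 lay below Ezh1 in both libraries.

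**Figure D1:**
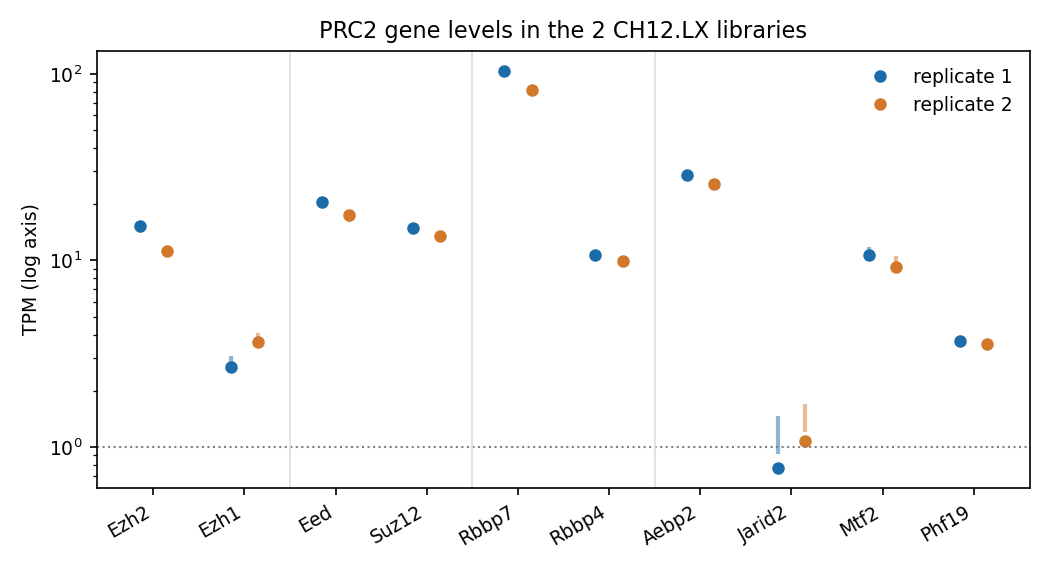
TPM of the 10 PRC2 genes on a log axis, with a point per library and vertical bars for the deposited credibility bounds; grey lines part the catalytic, scaffold, histone-binding and accessory subunits, and the dotted line is 1 TPM. Rbbp7 lies at 82.0 to 103 TPM and Jarid2 at 0.77 to 1.08 TPM, beneath its own bounds.

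Restricting TPM to coding transcripts moved the level of Aebp2, Eed, Mtf2 and Phf19 by more than the spread of the libraries. For Rbbp7, Suz12 and Rbbp4, transcripts annotated as protein-coding in GENCODE M21 held 100%, 97.7% ± 1.00 and 96.3% ± 0.153 of TPM. They held 85.8% ± 7.36 of Ezh1, 84.2% ± 0.244 of Ezh2, 79.4% ± 5.77 of Jarid2, 71.6% ± 0.419 of Phf19 and 68.3% ± 1.15 of Eed. For Aebp2 and Mtf2 the coding share was 46.6% ± 6.33 and 41.7% ± 2.14. Short reads split the transcripts of a gene indirectly, so all transcript shares are estimates.

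A transcript of Aebp2 with a length of 912 bases (ENSMUST00000068583), which GENCODE M21 no longer holds, was at 11.8 TPM for replicate 1, 13.1 for replicate 2. It took 40.9% of Aebp2 TPM in replicate 1 and 51.0% in replicate 2, but 14.0% and 19.5% of expected counts, since TPM weights short transcripts more. Without the transcripts absent from M21, Aebp2 was at 15.2 TPM in the first replicate and 11.2 in the second. Aebp2-202, with a coding length of 1488 bases, was at 8.45 (replicate 1) and 5.60 TPM (replicate 2). Aebp2-201, with a coding length of 822 bases that lacks the long N-terminal stretch encoded by Aebp2-202, was at 3.54 TPM for replicate 1, 3.16 for replicate 2. Coding transcripts over 1000 coding bases, the long form, held 55.2% ± 3.70 of coding Aebp2 TPM, so both the long and the short form were present.

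Eed-202, a retained-intron transcript of 454 bases with no coding sequence, held 31.7% ± 1.14 of Eed TPM but 6.64% of its expected counts. The coding transcript Eed-201 was at 14.1 TPM in the first replicate and 11.7 in the second. In Mtf2 the full coding transcript Mtf2-201 was at 2.86 (replicate 1) and 1.81 TPM (replicate 2), with bounds that did not overlap, 2.51 to 3.05 and 1.54 to 1.95. Processed transcripts without a coding sequence held 54.2% ± 4.57 of Mtf2 TPM and 54.6% ± 8.21 of its counts, led by Mtf2-206 at 17.8% ± 1.66 of TPM and Mtf2-205 at 15.4% ± 3.73. Unlike the noncoding share of Eed, that of Mtf2 was therefore as large by counts as by TPM. A short coding fragment, Mtf2-214, held 15.9% ± 3.69 of TPM and 2.89% of counts.

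Counting only coding transcripts, Suz12, Eed, Aebp2, Ezh2 and Rbbp4 lay close together below Rbbp7. Suz12 was at 13.9 ± 1.09 TPM, Eed at 12.9 ± 1.69, Aebp2 at 12.8 ± 2.76, Ezh2 at 11.2 ± 2.36 and Rbbp4 at 9.88 ± 0.488 TPM (SD, n = 2 each). Aebp2 moved from the second place to the fourth, and each of these overlapped its neighbour in the order over the libraries. Rbbp7, at 92.6 ± 14.9 TPM, stayed at the top, and Mtf2, at 4.16 ± 0.622, Ezh1, at 2.69 ± 0.368, Phf19, at 2.60 ± 0.0354, and Jarid2, at 0.745 ± 0.233 TPM, filled the low end. Phf19, at 3.63 TPM with all transcripts, thus came just below Ezh1, with overlapping libraries. The ratio of Ezh2 to Ezh1 was 4.26 and that of Rbbp4 to Rbbp7 0.108, close to the 4.41 and 0.112 of all transcripts. This count of coding transcripts was added after the values were seen.

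**Figure D2:**
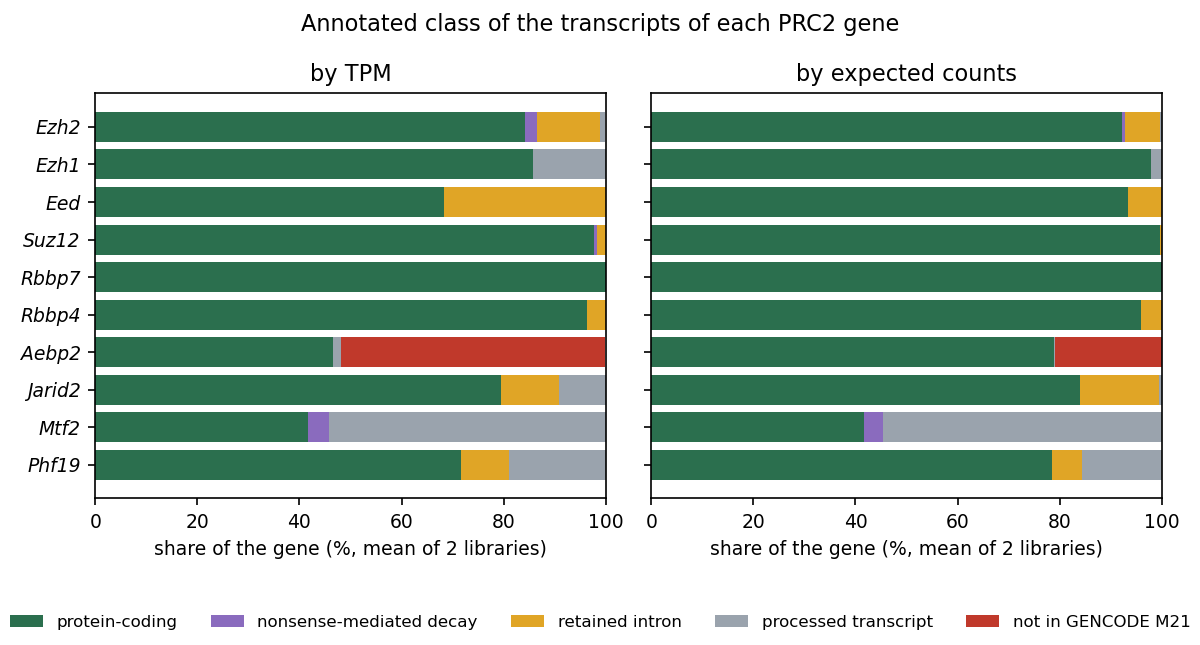
Share of each PRC2 gene held by transcripts of each annotated class, as the mean of 2 libraries in percent, by TPM on the left and by expected counts on the right. The share of Aebp2 in transcripts not in GENCODE M21 is 51.9% by TPM and 20.9% by counts, while the processed transcripts of Mtf2 take 54.2% and 54.6%.

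Ezh2 was spread over several coding transcripts. Ezh2-201, with all 20 exons, held 43.2% ± 1.12 of Ezh2 TPM, at 6.72 TPM for replicate 1, 4.78 for replicate 2. Ezh2-202, which lacks the 126 bases of exon 14 shown above, held 19.0% in replicate 1 and 20.6% in replicate 2. It is annotated with 18 exons and 2115 bases, of which 2112 are coding. Its share is therefore not a measure of skipping of exon 14 alone. Ezh2-203, which lacks exon 4, held 12.4% in replicate 1 and 10.6% in replicate 2, but its deposited bounds ran from 0.670 to 3.17 TPM in replicate 1 and from 0.0468 to 1.92 TPM in replicate 2. The share of Ezh2-202 thus varied little between libraries, while that of Ezh2-203 is not well fixed within either.

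The main coding forms of Suz12 differed between the libraries in opposite directions, beyond the deposited bounds. Suz12-201, with exon 4, was at 10.9 TPM in the first replicate and 7.57 in the second, and its bounds in replicate 1 lay wholly above the upper bound of 8.36 in replicate 2. Suz12-206, without it, was at 3.76 (replicate 1) and 5.57 TPM (replicate 2), with bounds of 2.74 to 4.63 and 4.75 to 7.04. The form without the 69 bases held 25.2% of Suz12 TPM in replicate 1 and 41.1% in replicate 2, and 25.2% and 41.9% of expected counts. With 1 library on each side this difference has no replicate check. The gene-level TPM of Suz12 differed far less than either form.

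The remaining genes were simpler or not resolved. Rbbp7-201 held 92.1% ± 3.05 of Rbbp7, Rbbp4-201 held 95.4% ± 1.36 of Rbbp4, Phf19-201 held 71.6% ± 0.431 of Phf19, with the processed transcript Phf19-203 at 17.9% ± 0.0495, and Jarid2-208 held 65.1% ± 8.10 of Jarid2. By the deposited posterior mean, Jarid2-208 held 41.7%, so its share is poorly fixed. Ezh1-203 and Ezh1-202 differ by 9 coding bases at the junction of exons 2 and 3. They held 56.9% ± 9.45 and 21.2% ± 6.03 of Ezh1 TPM, but their bounds in replicate 1, 0.143 to 2.02 and 0.141 to 1.99 TPM, were nearly the same. By the posterior mean the shares were 34.9% and 39.1%, the opposite order, so these data do not order them.

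**Figure D3:**
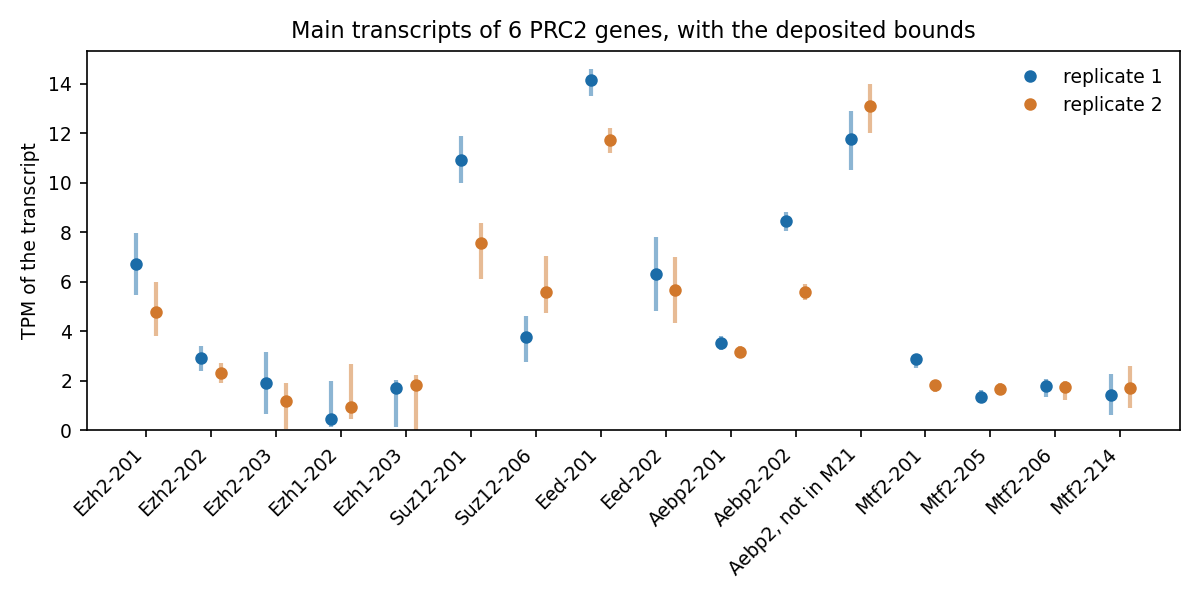
TPM of transcripts that held 10% or more of their gene in both libraries, for Ezh2, Ezh1, Suz12, Eed, Aebp2 and Mtf2, with a point per library and bars for the deposited bounds. The bounds of Suz12-201 and of Suz12-206 part between the libraries, in opposite directions, whereas those of Ezh1-203 and Ezh1-202 are wide and overlap.

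The libraries differed modestly in PRC2 genes, as they did in most genes averaging at least 1 TPM, and the 2 catalytic genes leaned in opposite directions. By the log2 ratio of TPM + 0.1, replicate 1 over replicate 2, 0 of 10 members lay past 1.5-fold, a fold that 7.37% of the 9851 genes averaging at least 1 TPM passed, 2.53% toward replicate 1 and 4.84% toward replicate 2. Jarid2, at a mean under 1 TPM, is not among those genes. Of the members, 8 were higher in replicate 1, while Ezh1 and Jarid2 were higher in replicate 2. Of 9087 protein-coding genes averaging at least 1 TPM, 5153 were higher in replicate 1 and 3891 in replicate 2, so most such genes leaned the same way as most members. The median over those 9851 genes was 0.04, and the 5th and 95th percentiles were -0.57 and 0.48. By TPM every member lay between these percentiles. Ezh2 had the highest log2 ratio of TPM, at 0.44, and a ratio by TMM-scaled counts of 0.42 (95% counting interval 0.34 to 0.49). Ezh1 stood at -0.44 by TPM and -0.35 by counts (-0.46 to -0.23), and Jarid2 at -0.44 and -0.46 (-0.63 to -0.28). These intervals cover counting error only, and the difference between 2 libraries of a group says nothing of a condition. In bulk RNA, fewer cells that express a gene and less of its RNA per cell cannot be told apart.

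The other members lay nearer to the middle of all genes. Rbbp7 was at 0.33 by TPM and 0.32 by counts, Eed at 0.23 and 0.24, Suz12 at 0.14 and 0.13, Mtf2 at 0.20 and 0.26, Rbbp4 at 0.10 and 0.05, and Phf19 at 0.04 and 0.01. Phf19 was not on the same side with DESeq2 size factors, at -0.00. Aebp2 was at 0.17 by TPM but 0.31 by counts, and the effective length of its estimated transcript mix was 2196 bases in replicate 1 and 1947 bases in replicate 2. The deposited bounds of TPM did not overlap between the libraries for 6 members, namely Ezh1, Ezh2, Eed, Suz12, Rbbp7 and Aebp2. These bounds cover read assignment within a library only. The share of all genes with bounds that part was not computed, so this count is not a trait of the members. Of 22 S phase genes, which serve DNA replication, 22 leaned toward replicate 1. Their median log2 ratio was 0.30, and Rrm2 and Cdc6 were past 1.5-fold. Their part in the lean of Ezh2 was not tested.

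**Figure D4:**
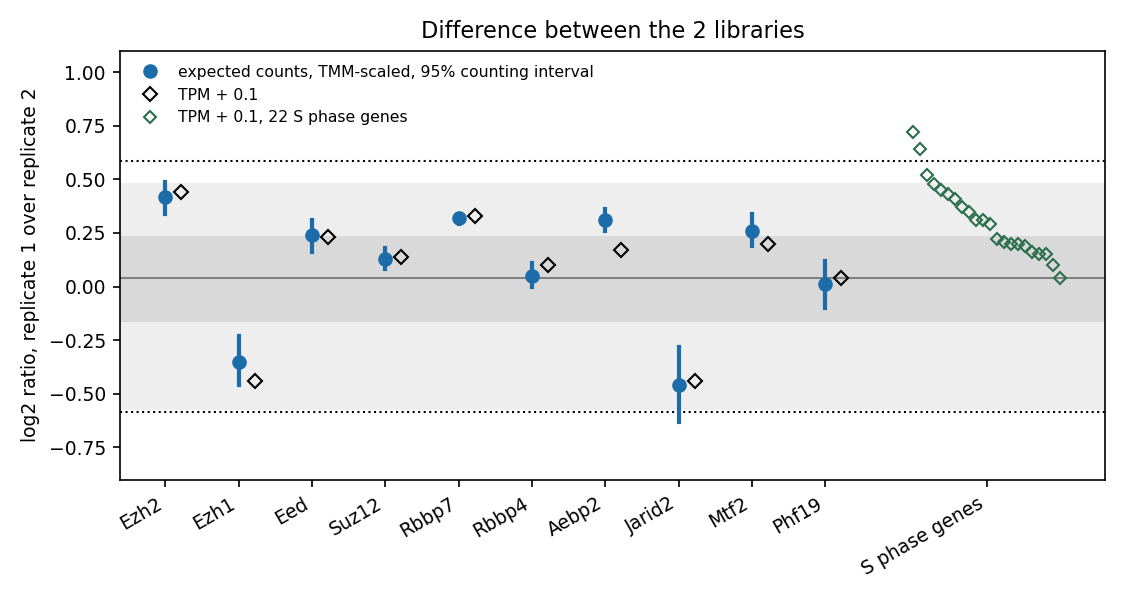
Log2 ratio of replicate 1 over replicate 2 for the 10 PRC2 genes and 22 S phase genes; filled points (members only) are TMM-scaled counts with 95% counting intervals, and open points are TPM + 0.1. The shaded bands run from the 25th to the 75th and from the 5th to the 95th percentile of 9851 genes and the dotted lines mark 1.5-fold, which none of the members reaches.

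E2F factors, which drive S phase genes, are known regulators of EZH2 and EED, so RefSeq promoter windows (GRCm38.p6, 250 bases before to 50 after a start) were searched on both strands for the octamers TTTCCCGC, TTTGGCGC, TTTCGCGC and TTTGCCGC. An octamer was present in 3 of 10 members, which have 14 windows, against 2.60% of 27025 genes and 9 of 18 S phase genes with a window. Eed held none. The genes behind the 2.60% were not matched to the members for CG content, expression or windows per gene, so enrichment was not tested. No window of a member held more than 1 octamer, so none overlapped. The octamer of Ezh2 is at positions 4 to 11 of the transcript, that of Suz12 at -219 to -212 and that of Phf19 at -208 to -201, and capitals mark it. For Phf19 the match is TTTCCCGC on the strand opposite to the one printed, so its capitals read as the reverse complement. A match is a description of letters and not a bound site.
Ezh2 (chr6:47595009-47595038, minus strand): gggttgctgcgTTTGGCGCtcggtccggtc
Suz12 (chr11:79992876-79992905, plus strand): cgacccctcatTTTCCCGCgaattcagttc
Phf19 (chr2:34914166-34914195, minus strand): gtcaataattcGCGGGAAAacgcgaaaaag

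The other partners of PRC2 were low. Of Phf1, Epop, Lcor, Lcorl and Ezhip, 0 of 5 reached 1 TPM in both libraries. Phf1, the relative of Mtf2 and Phf19, was at 0.66 TPM for replicate 1, 0.83 for replicate 2, and Epop, an elongin-binding partner, was at 1.20 and 0.99 TPM. Lcor had 0.97 and 0.74 TPM, and Lcorl 0.88 and 0.95 TPM, in the same order of libraries. Ezhip, an inhibitor of EZH2 known from the germ line, had 0 counts in both libraries, and 3 counts would have been 0.0146 TPM at most. Among PRC2.1 subunits Mtf2 was therefore the highest, and Mtf2, Phf19 and Phf1 together came to 0.506 of the sum of Jarid2 and Aebp2 in replicate 1 and 0.510 in replicate 2. Without the Aebp2 transcripts absent from M21, and with all transcripts of the other genes kept, this ratio was 1.03. With coding transcripts only for all of these genes it was 0.561. The balance of the 2 forms at the RNA level thus depends on which transcripts are counted.

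PRC1, the partner complex that places ubiquitin on histone H2A, was expressed broadly at lower levels, with 20 of 22 subunits detected and a median of 3.67 TPM. Kdm2b, which targets PRC1 to CpG islands, was at 20.5 ± 1.32 TPM, Rnf2, its main catalytic subunit, at 13.3 ± 0.255, Bmi1 at 10.8 ± 2.06 and Bcor at 9.46 ± 0.0919 TPM. Scmh1 at 0.895 ± 0.0636, Phc1 at 1.28 ± 0.424, Pcgf3 at 1.62 ± 0.431 and Pcgf2 at 1.66 ± 0.424 TPM were the lowest. Phc1, at 0.98 TPM in the first replicate and 1.58 in the second, was the one subunit past 1.5-fold.

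RNA of enzymes that undo the Polycomb marks was read too. Of the demethylases of lysine 27, Kdm6a was at 2.32 (replicate 1) and 2.29 TPM (replicate 2). Kdm6b was at 0.69 TPM for replicate 1, 1.30 for replicate 2. Uty, the Y-linked relative of Kdm6a, was at 2.40 and 2.68 TPM in replicates 1 and 2. Of 8 subunits of the PR-DUB complex, which removes ubiquitin from H2A, 6 were detected, with the enzyme Bap1 at 13.8 ± 0.311 and Foxk2 at 10.5 ± 0.247 TPM, followed by Asxl1 at a mean of 4.46 and Asxl2 at 3.73 TPM. Mbd6 at 0.720, Mbd5 at 1.14 and Foxk1 at 2.66 TPM were low, and Asxl3 had 0 counts in both libraries.

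The listed subunits of other complexes that use Rbbp4 or Rbbp7 were all detected as RNA. Of 22 subunits of the chromatin assembly factor, NuRD, SIN3, HAT1 and MuvB complexes, 22 were detected, with a median of 13.8 TPM. Sap18 was at 48.2 ± 11.9, Sin3b at 38.8 ± 6.02, Chd4 at 38.2 ± 2.88 and Mta2 at 34.8 ± 4.86 TPM, so Rbbp7 lay above every one of these partners and Rbbp4 below their median. The MuvB subunits Lin52 at 1.52 ± 0.148, Lin9 at 2.06 ± 0.474 and Lin37 at 2.25 ± 0.467 TPM, with Gatad2b at 2.35 ± 0.177 TPM, were the lowest.

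Hox genes, classical Polycomb targets, were largely silent. Of 39, 3 were detected, Hoxd4 at 2.18 ± 0.240, Hoxc4 at 1.62 ± 0.375 and Hoxa10 at 1.32 ± 0.0849 TPM, with Hoxb4 next at 0.740 ± 0.0566 TPM. A further 27 were under 0.1 TPM in both libraries, of which 14 had 0 counts, and 3 counts would have been 0.0105 to 0.0404 TPM in these. Hoxd4 shares 1154 of 2948 exon bases with Gm28230 on the same strand, so its value is uncertain. Histone methylation was not measured, so these levels do not show which genes PRC2 occupies.

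Of 5 genes that EZH2 is known to repress in germinal centre B cells, 3 were detected. Irf4, a factor of plasma cell fate, was at 33.0 TPM in the first replicate and 27.2 in the second, Prdm1 at 2.64 and 1.94 TPM, and the cell cycle inhibitor Cdkn1a at 6.21 and 9.76 TPM, past 1.5-fold in favour of replicate 2. Cdkn2a and Cdkn2b had 0 counts in both libraries.

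**Figure D5:**
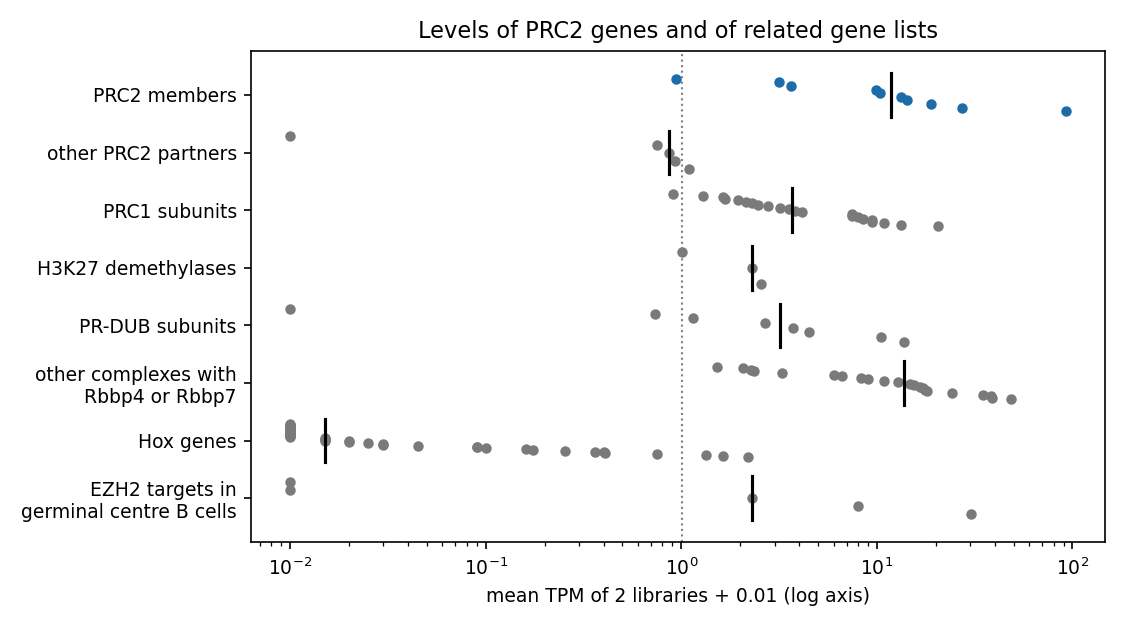
Mean TPM of 2 libraries + 0.01 on a log axis for the 10 PRC2 genes and the related lists, with a point per gene and a black bar at the median of each list. The PRC2 median is 11.8 TPM, that of PRC1 3.67 TPM and that of the Hox genes 0.005 TPM.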

How the data were processed

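Total RNA of 2 CH12.LX libraries was quantified by the authors on mm10 with annotations M2, M3 and M4, as the manifest deposited beside the tables states. The aligner and the quantifier were not given in the sources used here. Deposited expected counts, TPM, FPKM and transcript percent values are named so per the file headers, as are the credibility bounds. FPKM, M2 and M3 entered alternatives only.

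M4 tables were the main ones. The 26345 rows that name no gene held 5.68e-05% and 5.36e-05% of counts in replicates 1 and 2 and were left out. Symbols, transcript classes and coordinates came from GENCODE M21 on mm10 by identifier without version, which matched 42462 genes; some transcripts differ in length from M4. Ezhip was matched by its older symbol. Counts were rounded and scaled by TMM (edgeR 4.0.16, R 4.3.3) over genes with 10 or more summed counts. Intervals are exact binomial at 95%. They were tested on simulated counts that varied by counting error only, so that test does not cover other variation between libraries. With 2 libraries of 1 group, no test between groups and no likeness of pattern was computed. Python 3.11.15, numpy 2.4.6, pandas 2.3.3, scipy 1.17.1, matplotlib 3.10.9 and, for size factors, DESeq2 1.42.0 were used.

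The members and lists were chosen with earlier results of these data known. Named were all members, up to 4 highest and 4 lowest genes per related list, list genes past 1.5-fold at a mean of 1 TPM or more, and member transcripts at 10% or more in both libraries; of the marker and S phase lists a summary is given.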

Additional observations from a re-analysis of the deposited data

How the results depend on the processing

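The median of the 10 members, 11.8 TPM, was 48.4 TPM after rescaling to protein-coding genes and 10.6 to 12.8 TPM with either library left out. Of the members, 9 were detected, and 9 to 10 with either library left out. All 10, Jarid2 included, were detected at 0.5 TPM, at 1 FPKM and after the rescaling, and 5 at 10 TPM. The share of all genes was computed only for 1 TPM in both libraries, and not for these other settings. None of the members passed 1.5-fold under any of the 10 other settings. These included another pseudocount, count scalings, FPKM, posterior mean TPM, M2, M3 and coding transcripts. A 2-fold cutoff was also among them and could not have given another result. With coding transcripts Jarid2 came close to the fold, at a log2 ratio of -0.57. The Ezh2 to Ezh1 ratio ran from 3.09 to 5.72 and the Rbbp4 to Rbbp7 ratio from 0.103 to 0.121 with either library left out. The ratio of PRC2.1 to PRC2.2 subunits, 0.508, ran from 0.506 to 0.510 with either library left out and was 0.512 with M2, with M3 and with posterior mean TPM, 0.561 with coding transcripts only and 1.03 without the Aebp2 transcripts absent from M21, the last of these chosen after the data were seen. The number of Hox genes detected, 3, was 7 after rescaling to protein-coding genes. Shares of expected counts moved 14 of 21 named transcripts by more than the spread of the libraries, and posterior mean shares moved 7 of 21, among them Jarid2-208, Ezh1-203 and Ezh1-202. No paired analysis was possible because the design holds a single group. Jarid2 had the fewest expected counts of the members, 445 and 654 in replicates 1 and 2. Whether depth or the assignment of reads to its transcripts leaves its level poorly fixed was not tested.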
